A study of Mus musculus with 6 samples.

Results

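The accessible chromatin around 10 mouse genes was described: Dusp1, Dusp4, Dusp5, Dusp6, Spry2, Spry4, Egr1, Ier2, Ier3 and Klf10. The genes are a list of feedback regulators of the mitogen-activated protein kinase (MAPK) pathway and of immediate early genes. They are 10 of the 22208 protein-coding genes of the annotation. The rule that chose them used no measured value, but they were chosen with earlier results of these data known. A window of 100 kb on either side of each gene's 5′ end was searched, which gave 101 of the 39435 regions of the series. No region fell into the windows of 2 members.

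The cells were NMuMG, an established line of mouse mammary gland epithelium, which is 1 line in culture and not a tissue. All groups spent 6 h without serum and insulin before the agent was added. One group then received vehicle (the acid and albumin solution in which TGFβ1 is diluted) for 2 h, and the others received TGFβ1 at 5 ng/ml for 2 h or for 12 h. ATAC-seq, in which the transposase Tn5 cuts DNA that is not packed away, was done on 2 biological replicates of each group, and 1 peak list per group, made from both replicates, was analysed. The 12 h cells had also been without serum for longer than the vehicle cells, so that the agent and the time cannot be told apart at 12 h. Of 6 epithelial marker genes, the keratin genes Krt8 and Krt18 were the 2 whose 5′ end lay in a region of the vehicle list. The 5′ ends of Epcam, Cdh1, Cldn3 and Esrp1 did not, although Cdh1 was in both TGFβ lists, and of 5 fibroblast and 4 blood cell marker genes 0 were listed. The lists held 16765 regions with vehicle, 32548 at 2 h and 33079 at 12 h. They give no value per replicate and no read depth, so there is no spread between replicates, no test between groups, and the statements below describe lists. Shares carry 95% Wilson intervals, which cover counting error only.

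Growth factor receptors signal through RAS, RAF, MEK and ERK, and ERK switches on the immediate early genes within minutes, without new protein synthesis. Several products of this first wave then turn the pathway down. Dual-specificity phosphatases (DUSPs) remove the activating phosphates from MAPKs, and the Sprouty proteins act further up, between the receptor and RAF. TGFβ signals mainly through SMAD proteins and also activates MAPKs in epithelial cells. The factors that commonly act at such genes include AP-1 (dimers of JUN and FOS proteins), CREB, which binds the cyclic AMP response element (CRE), serum response factor, which binds the CArG box, and the ETS and EGR families.

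Sequences near the 5′ ends and in regions of the TGFβ lists were read from the mm9 genome (NCBIM37), to show the motif matches of 3 promoters and of the Dusp5 and Dusp6 windows, to which the later paragraphs refer. Capitals mark the CRE (TGACGTCA) in the Dusp1 and Ier2 lines and a pair of adjoining CArG boxes in the Dusp5 line. Each is the stretch of 150 bases just upstream of the annotated 5′ end on the strand of the gene, at chr17:26645465-26645614 (minus strand), chr8:87186752-87186901 (minus strand) and chr19:53603449-53603598 (plus strand), and none of these touched an exon of a protein-coding gene.
Dusp1: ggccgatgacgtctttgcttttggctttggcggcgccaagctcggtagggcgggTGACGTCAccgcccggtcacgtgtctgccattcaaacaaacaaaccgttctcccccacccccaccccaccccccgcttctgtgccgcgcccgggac
Ier2: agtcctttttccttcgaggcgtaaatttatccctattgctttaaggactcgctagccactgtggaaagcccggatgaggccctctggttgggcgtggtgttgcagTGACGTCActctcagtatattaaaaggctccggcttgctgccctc
Dusp5: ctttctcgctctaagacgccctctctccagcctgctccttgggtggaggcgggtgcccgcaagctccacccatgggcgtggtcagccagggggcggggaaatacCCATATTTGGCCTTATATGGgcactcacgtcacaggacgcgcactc

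The Dusp1 CRE spanned positions -96 to -89 from the 5′ end, and the Ier2 CRE spanned -45 to -38. In Dusp5 the CArG boxes lay at -46 to -37 and -36 to -27, end to end. Over the 250 bases upstream of the 5′ end, 2 of the 10 members held a CRE, against 1.91% of all protein-coding genes. The CArG box was found in 2 members, Dusp5 and Egr1, against 1.35% of all. No member held AP-1 (TGAGTCA or TGACTCA, 3.86% of all genes), the ETS motif CCGGAAGT (3.36%), the SMAD palindrome GTCTAGAC (0.144%) or the EGR motif GCGNGGGCG (6.02%) in that stretch. Both strands were searched for exact matches, and a match is a description of the letters and not a sign that a factor was bound.

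The next lines show AP-1 matches (TGAGTCA or its reverse complement TGACTCA, in capitals) in regions that were in both TGFβ lists and had no vehicle region, given on the plus strand with 17 bases on either side. They are examples picked after the counts were seen, because all 4 such regions of the Dusp6 window held a match. The Dusp5 lines below were also picked after the counts were seen. Over the windows of all members 14 of 31 such regions held a match in their full length, a count not made for the series. In their central 500 bp, 11 of the 31 had one (35.5%), against 47.3% of all such regions of the series. That stretch is the 500 bp around the centre of a region, and it runs past the ends of a narrower region. The lines therefore do not show that AP-1 was more frequent around these genes. In the Dusp6 window the stretches shown lie at chr10:98665130-98665170, chr10:98689601-98689641, chr10:98713587-98713627 and chr10:98771689-98771729, in this order.
Dusp6 region 60575 bp upstream: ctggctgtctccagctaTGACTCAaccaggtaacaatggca
Dusp6 region 35861 bp upstream: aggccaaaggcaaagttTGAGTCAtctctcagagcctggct
Dusp6 region 11915 bp upstream: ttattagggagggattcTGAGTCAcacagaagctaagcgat
Dusp6 region 45431 bp downstream: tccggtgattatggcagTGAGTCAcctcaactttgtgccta

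In the Dusp5 window 4 of the 7 regions of this kind held AP-1, with 5 matches in all. Those shown lie at chr19:53508537-53508577, chr19:53565585-53565625, chr19:53629146-53629186 and chr19:53629668-53629708, the last pair from 1 region. The region at chr19:53627328-53627614, 287 bp long and 23729 bp downstream of the 5′ end, is given whole, with its single match in capitals.
Dusp5 region 94766 bp upstream: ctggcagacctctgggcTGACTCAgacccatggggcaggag
Dusp5 region 37659 bp upstream: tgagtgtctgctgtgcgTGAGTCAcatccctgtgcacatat
Dusp5 region 25289 bp downstream, first match: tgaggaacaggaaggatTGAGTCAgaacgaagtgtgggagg
Dusp5 region 25289 bp downstream, second match: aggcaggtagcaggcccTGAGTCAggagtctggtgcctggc
Dusp5 region 23729 bp downstream, whole: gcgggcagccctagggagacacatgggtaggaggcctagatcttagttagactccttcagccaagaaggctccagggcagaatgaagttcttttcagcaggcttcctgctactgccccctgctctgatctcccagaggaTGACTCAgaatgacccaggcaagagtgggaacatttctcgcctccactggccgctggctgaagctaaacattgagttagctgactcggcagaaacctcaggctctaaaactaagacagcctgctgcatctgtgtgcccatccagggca

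A CRE was also found away from the promoters. Its match in the Dusp1 window, at chr17:26675206-26675247 with its flanks, lay in a region of both TGFβ lists without a vehicle region, 29654 bp upstream of the 5′ end, and this was the only region of that pattern with a CRE among the 31 described below.
Dusp1 region 29654 bp upstream: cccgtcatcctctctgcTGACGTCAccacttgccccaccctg

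More regions were listed around these genes with TGFβ than with vehicle, as over the whole series. The 10 windows held 46 regions of the vehicle list, 87 of the 2 h list and 85 of the 12 h list. Over the series the lists held 16765, 32548 and 33079 regions in the same order. Of the 101 regions, 41 were in all 3 lists (40.6%, interval 31.5 to 50.3, against 38.4% of all regions of the series). A further 31 were in both TGFβ lists and had no vehicle region (30.7%, interval 22.5 to 40.3, against 28.5%). These are called gained below, a word about list membership alone, because a region just under the peak threshold of the authors is missing from a list too. Both shares of the series lay inside the intervals of the members.

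The other patterns were smaller. The 2 h list alone held 11 regions (10.9%, against 12.9% of all regions), and the 12 h list alone held 13 (12.9%, against 16.3%). Vehicle and 2 h without 12 h held 3 (2.97%, against 2.25%), vehicle alone held 2 (1.98%, against 1.16%), and vehicle and 12 h without 2 h held 0 (against 0.388%). Of the 46 vehicle regions, 44 were met again at 2 h (95.7%, interval 85.5 to 98.8, against 96.1% of all vehicle regions) and 41 at 12 h (89.1%, interval 77.0 to 95.3, against 91.4%). Both shares of the series lay inside these intervals, and the 5 vehicle regions that had no counterpart at 12 h were in the windows of Dusp1, Dusp4 and Ier3.

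**Figure D1:**
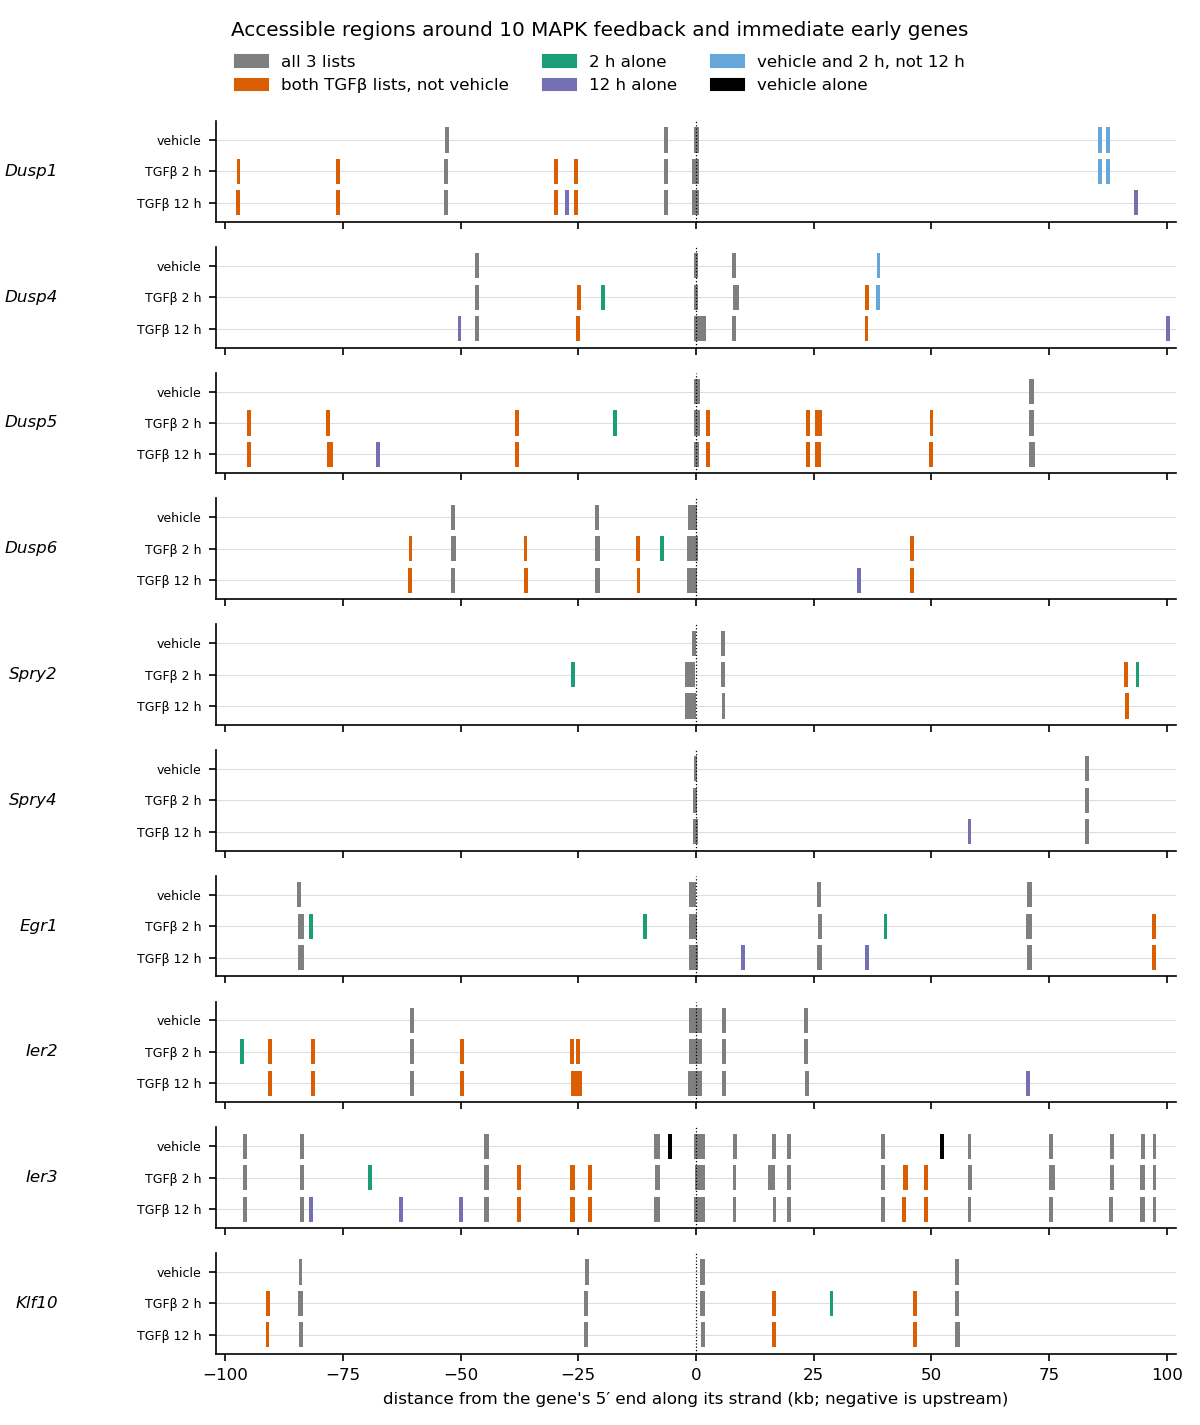
Regions of the vehicle, TGFβ 2 h and TGFβ 12 h lists within 100 kb of the 5′ end of each gene, with the distance in kb along the strand of the gene on the x axis and 1 row per list. Colours give the list pattern, and marks narrower than 0.8 kb are drawn 0.8 kb wide. Orange marks, the 31 regions in both TGFβ lists without vehicle, stand on either side of Dusp5 and are missing around Spry4.

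The windows of these genes were fuller than most. A member had a median of 9.5 regions in its window, from 3 at Spry4 to 25 at Ier3, while all 22208 protein-coding genes had a median of 5 (quartiles 2 to 8). In vehicle the medians were 4 and 2, at 2 h they were 8 and 4, and at 12 h they were 7.5 and 4. For gained regions they were 3.5 and 1 (quartiles 0 to 2). The members had a median of 2 other protein-coding 5′ ends in the window, from 0 to 10. Over all genes the median was 3 (quartiles 1 to 6). Among the 7906 genes whose 5′ end lay in a region of every list, a closer comparison, the medians were 7 regions in all, 4 with vehicle and 1 gained. The medians of the members still include Spry2 and Klf10, whose 5′ ends were not in a region of every list.

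At least 1 gained region was found in the windows of 9 of the 10 members, against 62.7% of all protein-coding genes. Spry4 was the exception. The nearest gained region was 2376 bp away at Dusp5 and 97107 bp away at Egr1, with a median of 24157 bp over the 9 members and 30869 bp over the 13935 genes that had one. None of the 31 covered a 5′ end of a member. They lay upstream in 19 cases and downstream in 12.

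**Figure D2:**
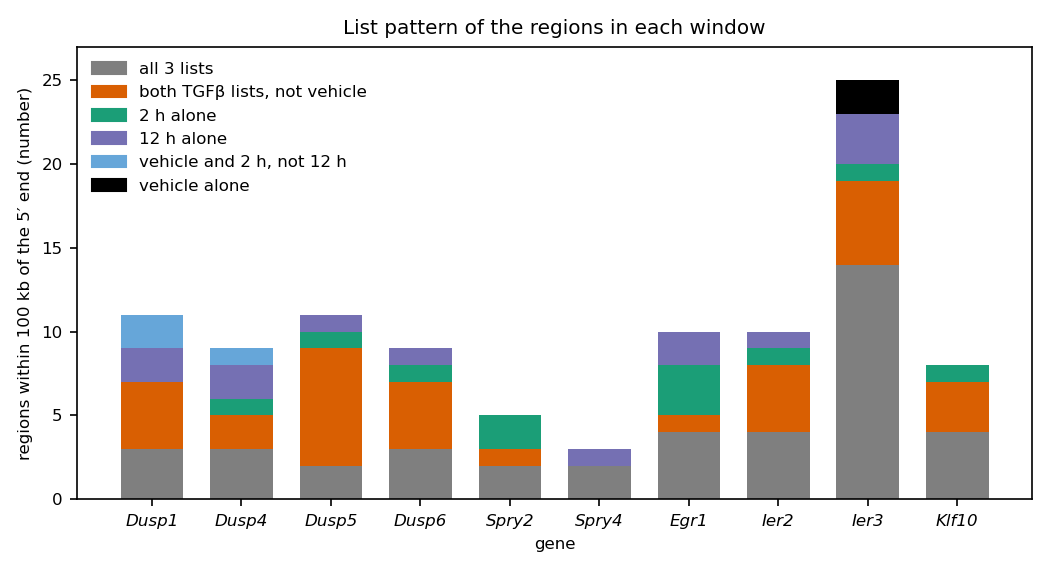
Number of regions within 100 kb of the 5′ end (y axis) for each gene (x axis), stacked by list pattern. Dusp5 had 7 regions in both TGFβ lists without vehicle beside 2 in all 3 lists, and Ier3 had 5 beside 14.

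By role, the phosphatases had the largest share of gained regions. The windows of Dusp1, Dusp4, Dusp5 and Dusp6 held 40 regions, of which 14 were in the vehicle list and 34 in each TGFβ list, and 17 of the 40 were gained (42.5%, interval 28.5 to 57.8). The Sprouty windows held 8 regions, 1 of them gained (12.5%, interval 2.24 to 47.1). The windows of Egr1, Ier2, Ier3 and Klf10 held 53, of which 13 were gained (24.5%, interval 14.9 to 37.6), and without the crowded Ier3 window 8 of 28 were (28.6%). Over all regions of the series the share was 28.5%, which is the lower limit of the phosphatase interval. Of the 17 gained regions of the phosphatases, 7 were in the Dusp5 window alone. The intervals of the roles overlap one another, and the difference was not tested.

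Dusp5, whose product is a nuclear phosphatase for ERK, stood out by count. Its window (gene at chr19:53603599-53616921, plus strand) held 2 regions with vehicle, 10 at 2 h and 10 at 12 h. The vehicle regions were that of its own 5′ end and that of the start of Smc3, which lies 70678 bp downstream, and both were in all 3 lists. The other 9 were in TGFβ lists only, 7 of them in both. Of all protein-coding genes 167 (0.752%) had 7 or more gained regions, and of the 3204 genes with 2 vehicle regions in the window 14 did (0.437%), where the median was 1. This rank is a description of a gene picked from the 10 by its count.

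The gained regions of Dusp5 spread from 94766 bp upstream to 49782 bp downstream. The nearest, in an intron of the gene at chr19:53605975-53606345, was 344 bp wide at 2 h and 371 bp at 12 h. One at chr19:53628888-53630276, past the 3′ end, was 1389 bp wide at 2 h and 1336 bp at 12 h. It was the widest region of the window at 12 h, ahead of the one at the 5′ end. The region at chr19:53525178-53526512 was 289 bp wide at 2 h and 1335 bp at 12 h. Of the 7, the other 6 were intergenic. The regions printed above with AP-1 matches were 4 of these 7.

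Dusp6, a cytoplasmic phosphatase selective for ERK, had no other protein-coding 5′ end in its window, and all 9 regions had Dusp6 as the nearest gene. Its window (gene at chr10:98725865-98730122, plus strand) held 3 regions with vehicle and 8 in each TGFβ list. The 4 gained regions stood 60575, 35861 and 11915 bp upstream and 45431 bp downstream. Their widths at 2 h were 235, 334, 457 and 606 bp, and those at 12 h were 223, 581, 623 and 812 bp. The first was thus slightly narrower at 12 h and the other 3 were wider. Between them lay 2 distal regions of all 3 lists, of which the one 51068 bp upstream was 415 bp wide with vehicle, against 1005 bp at 2 h and 529 bp at 12 h.

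Dusp1 encodes MKP-1, a nuclear phosphatase that acts on p38 and JNK as well as ERK and is itself an immediate early product. Its window (gene at chr17:26642535-26645464, minus strand) held 5 regions with vehicle, 9 at 2 h and 9 at 12 h. The 4 gained regions were all upstream, the nearest at chr17:26670754-26671072, 25290 bp away, 293 bp wide at 2 h and 319 bp at 12 h. A pair of regions in an intron of Neurl1b, 87321 and 85659 bp downstream, were listed with vehicle (452 and 444 bp) and at 2 h (498 and 518 bp) and had no counterpart at 12 h. A region 5863 bp upstream of Dusp1, in all 3 lists, had a width of 259 bp with vehicle that was 500 bp at 2 h and 908 bp at 12 h. It held 2 AP-1 matches. Only 2 of the 11 regions had Dusp1 as the nearest gene, and the other 9 were nearest to Neurl1b, Gm8225 or Ergic1.

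Dusp4, another nuclear phosphatase of ERK, p38 and JNK, had 4 regions with vehicle, 7 at 2 h and 7 at 12 h around the gene at chr8:35870351-35882948 (plus strand). Only 2 of its 9 regions were gained, the nearer at chr8:35844964-35845873, 24478 bp upstream, 910 bp wide at 2 h and 341 bp at 12 h. No AP-1 match was found in either. The regions of the 12 h list alone, 50087 bp upstream and 99966 bp downstream, held 1 match each. In an intron, a region 7768 bp downstream was 471 bp wide with vehicle, against 1348 bp at 2 h and 640 bp at 12 h. The greatest width came from a second interval, 349 bp long, that was listed at 2 h and was joined to the first across a gap.

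The Sprouty genes, which encode inhibitors of receptor tyrosine kinase signalling, had the sparsest windows. Spry2 (chr14:106291166-106296036, minus strand) had 2 regions with vehicle, 5 at 2 h and 3 at 12 h. Its single gained region, at chr14:106204091-106204965, lay 91071 bp downstream, was 425 bp wide at 2 h and 875 bp at 12 h, and held 3 AP-1 matches. The 2 regions listed at 2 h alone were 528 and 657 bp wide, and neither was met at 12 h. Spry4 (chr18:38745922-38760922, minus strand) had 2 regions with vehicle, 2 at 2 h and 3 at 12 h, and the added one was 211 bp wide.

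Among the immediate early genes, Egr1 encodes a zinc finger factor that serum and growth factors induce through CArG boxes and ETS partners. Its window (gene at chr18:35020861-35024638, plus strand) held 4 regions with vehicle, 8 at 2 h and 7 at 12 h. Only 1 was gained, and it was the farthest of the window, 97107 bp downstream, 487 bp wide at 2 h and 481 bp at 12 h. The TGFβ regions that vehicle lacked were otherwise in 1 list alone, 3 at 2 h and 2 at 12 h. These were narrow, at 227 to 496 bp. The 4 vehicle regions were all met again at both times, among them the starts of the neighbours Kdm3b and Etf1.

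Ier2 (chr8:87185230-87186751, minus strand), an immediate early gene of a nuclear protein, had 4 regions with vehicle, 10 at 2 h and 9 at 12 h. All 4 of its gained regions lay upstream in other genes, the nearest 24157 bp away over exons of Nacc1 and Trmt1 at chr8:87210908-87213277. At 2 h this consisted of 2 separate regions of 268 and 225 bp, and at 12 h it was 1 region of 2370 bp. No AP-1 match was found in the 4. Ier3 (chr17:35958629-35959868, plus strand), a stress-responsive gene that modulates ERK signalling and survival, lay in the most crowded window, with 10 other protein-coding 5′ ends. It had 16 regions with vehicle, 20 at 2 h and 22 at 12 h. Gained regions were 5 of its 25, the nearest at chr17:35935900-35936308, 22321 bp upstream, 409 bp wide at 2 h and 225 bp at 12 h.

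The Ier3 window was also the only 1 of the 10 with regions listed with vehicle alone. One of these was 357 bp wide, 5381 bp upstream of the gene, with a vehicle peak score of 769. The other was 178 bp wide, over an exon of 2310014H01Rik, with a score of 676. Both scores were under the median of 967 over the 46 vehicle regions of the windows. The score is a column of the vehicle list without a stated scale, and 21 of the 46 regions were at its highest value of 1000 (45.7%, against 52.1% of all vehicle regions).

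Klf10, also known as TGFβ-inducible early gene, encodes a Krüppel-like repressor. Around the gene at chr15:38221219-38230464 (minus strand) there were 4 regions with vehicle, 8 at 2 h and 7 at 12 h. All 4 vehicle regions were kept at both times and each held an AP-1 match somewhere in its length. Of its 3 gained regions, the nearest lay at chr15:38213535-38214108, 16356 bp downstream and past the 3′ end, with widths of 574 bp at 2 h and 370 bp at 12 h. It held 1 AP-1 match, and the other 2 held none. The widest region at 12 h, of 937 bp, was at chr15:38174404-38175340 and in all 3 lists.

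The 5′ ends themselves were mostly listed with vehicle too. With vehicle the 5′ end of 8 of the 10 members lay in a region (36.0% of all protein-coding genes), at 2 h again 8 (41.5%), and at 12 h 9 (41.6%). The members that fell short were Spry2 and Klf10. The Spry2 region ended 45 bp upstream of the 5′ end with vehicle and 107 bp upstream at 2 h, and it reached 61 bp into the gene at 12 h. The Klf10 region began 828 bp into the gene with vehicle, against 917 bp at 2 h and 980 bp at 12 h, around a further annotated transcript start at position 38229466 and over coding exon, with a GC content of 76.0%. Counting any annotated start, the numbers were 9, 9 and 10.

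**Figure D3:**
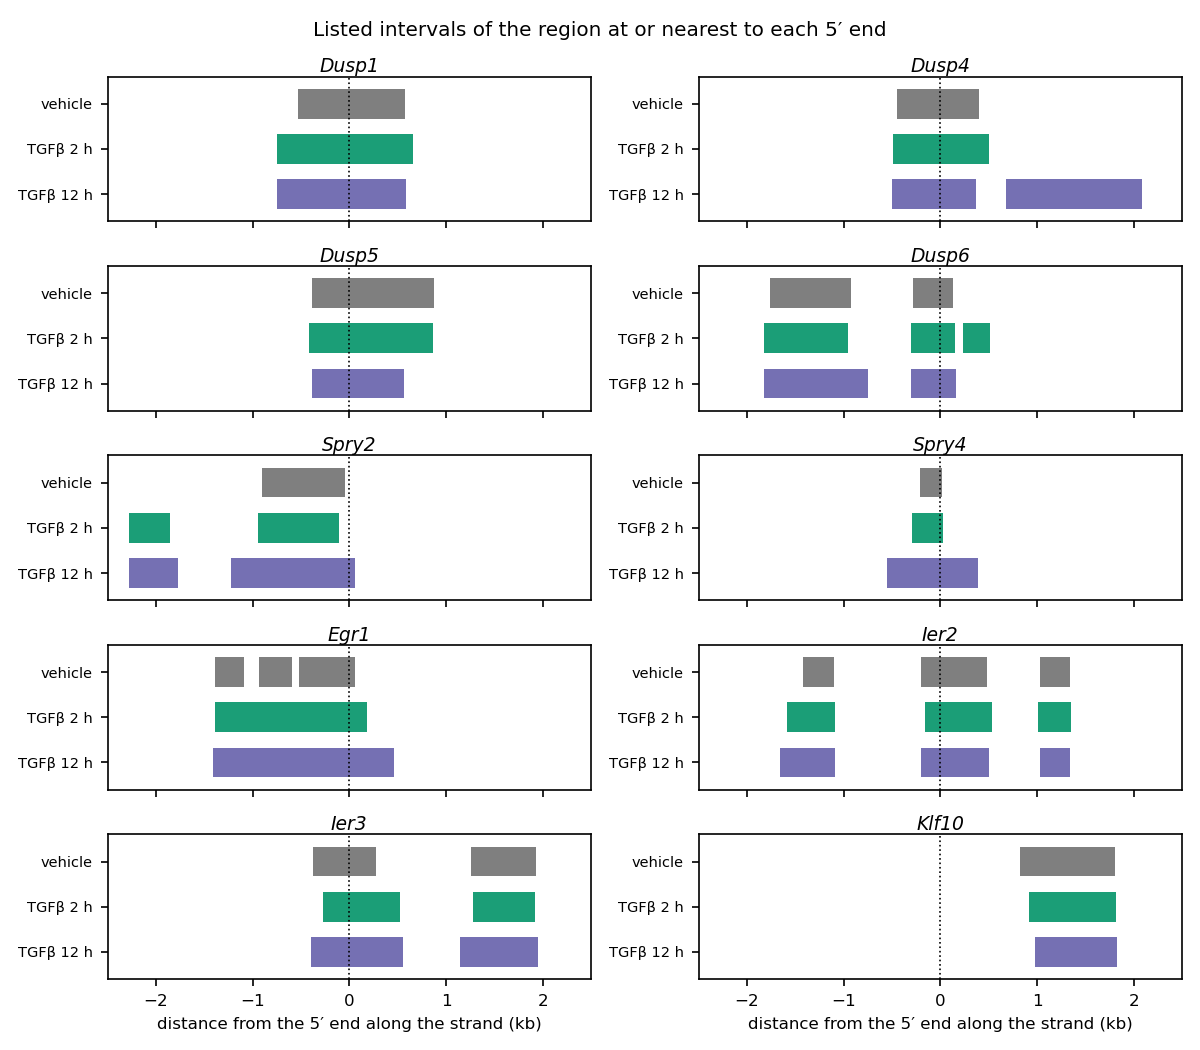
Listed intervals of the region at or nearest to the 5′ end of each gene, with the distance in kb along the strand on the x axis, the 5′ end as a dotted line and 1 row per list. Gaps between bars are stretches bridged by merging. At Egr1 the 3 vehicle intervals are a single one at 2 h and 12 h, at Dusp4 an interval of 1402 bp appears downstream at 12 h, and at Klf10 all bars start inside the gene.

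Where both a vehicle and a TGFβ region covered the 5′ end, 7 of 8 were wider at 2 h and 7 of 8 at 12 h (87.5%, interval 52.9 to 97.8, at each time). Over all protein-coding genes the shares were 80.0% and 84.2%. The region of Ier3 was the narrower one at 2 h, at 2198 bp against 2312 bp with vehicle, and it was 2353 bp wide at 12 h. That of Dusp5 was narrower at 12 h, at 954 bp against 1263 bp with vehicle and 1281 bp at 2 h. The loss was on the side of the gene body, where the region ended at 53604472 with vehicle and at 53604164 at 12 h. Dusp5 thus combined the most gained distal regions with a promoter region that was shorter in the 12 h list.

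The largest extensions at a 5′ end were those of Spry2, Dusp4 and Spry4. The Spry2 region was 858 bp wide with vehicle, against 2172 bp at 2 h and 2345 bp at 12 h, because an interval of 427 bp at 2 h and 515 bp at 12 h, about 2 kb upstream, was joined to it. The first interval was itself 1284 bp long at 12 h. The Dusp4 region was 853 bp with vehicle, against 995 bp at 2 h and 2584 bp at 12 h, when an interval of 1402 bp was listed downstream of the first, at 683 to 2084 bp into the gene. The Spry4 region was the narrowest with vehicle, at 228 bp, and was 319 bp at 2 h and 941 bp at 12 h, spreading to both sides.

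The remaining promoters changed less. The Egr1 region was 1450 bp wide with vehicle, against 1577 bp at 2 h and 1877 bp at 12 h. With vehicle it consisted of 3 intervals of 303, 347 and 579 bp, and at both TGFβ times it was unbroken, reaching 57 bp into the gene with vehicle, against 188 bp at 2 h and 465 bp at 12 h. It held 5 matches to the CArG box, 2 of them at -105 to -96 and -83 to -74 from the 5′ end. The Dusp1 region was 1099, 1407 and 1330 bp wide in the order vehicle, 2 h and 12 h, the Dusp6 region 1896, 2345 and 1992 bp, and the Ier2 region 2763, 2940 and 2998 bp. The Klf10 region inside the gene was 981, 901 and 846 bp wide in the same order, and was the only one of the 10 that was narrower at each TGFβ time than with vehicle. For 8 of the 10 members the region at the 5′ end was the widest of the window at 12 h, the exceptions being Dusp5 and Klf10.

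Regions listed with vehicle were mostly wider in the TGFβ lists, as they were throughout the series. Of 44 vehicle regions matched to 1 region at 2 h, 39 were wider (88.6%, against 82.7% of all matched regions), by a median of 124 bp against 147 bp over all. Of 41 matched at 12 h, 35 were wider, 5 narrower and 1 equal (85.4%, interval 71.6 to 93.1, against 83.6%), with a median of 127 bp against 175 bp. The largest ratio away from the 5′ ends was at the start of Tubb5 in the Ier3 window, at 329 bp with vehicle, against 1490 bp at 2 h and 352 bp at 12 h, where a second interval of 269 bp was joined at 2 h only. At the start of Kdm3b in the Egr1 window the widths were 392, 1182 and 1221 bp.

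**Figure D4:**
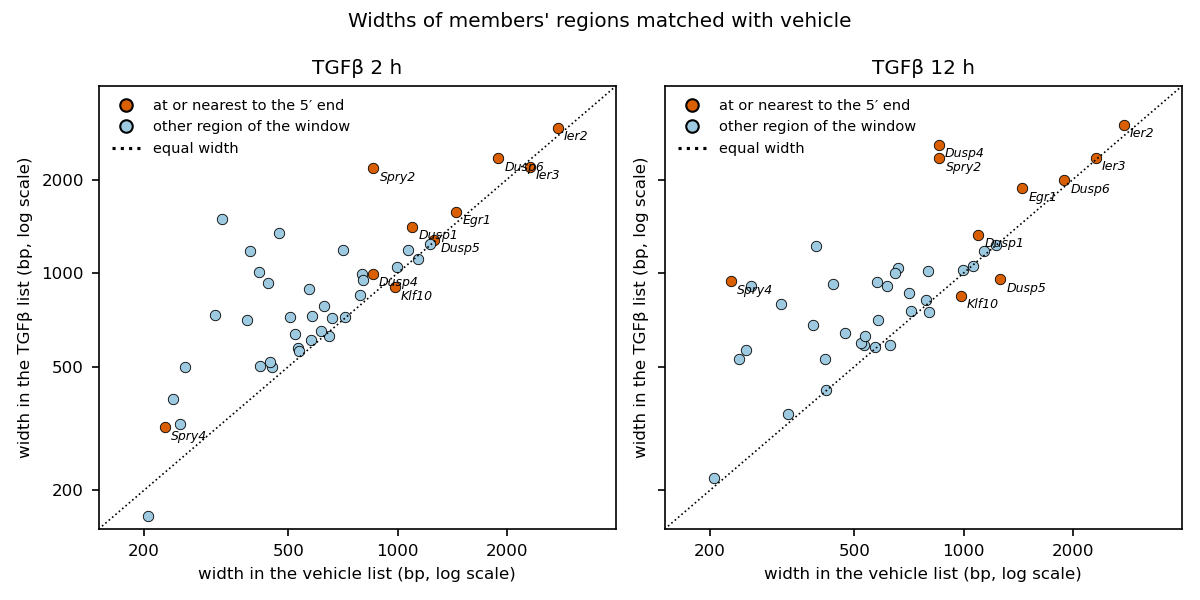
Width in the TGFβ list (y axis, bp, log scale) against width in the vehicle list (x axis, bp, log scale) for each region matched between both lists, at 2 h (left, 44 regions) and 12 h (right, 41 regions). Points above the dotted line are wider with TGFβ, as 39 and 35 of the regions were, and orange points are the region at or nearest to the 5′ end of a member. Spry2 stands far above the line at both times, and Dusp4 and Spry4 do at 12 h.

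Gained regions were narrower than those of all 3 lists. Their median width was 457 bp at 2 h (463 bp over all gained regions) and 493 bp at 12 h (513 bp), while the 41 regions of all 3 lists had medians of 901 and 906 bp. Of 30 gained regions that were 1 region at each time, 20 were wider at 12 h than at 2 h (66.7%, interval 48.8 to 80.8, against 60.4% over the series), by a median of 31 bp. The regions of a single TGFβ list were narrower still, with medians of 399 bp at 2 h and 377 bp at 12 h.

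The patterns differed in position, as they did over the series. Of all 101 regions, 32 lay within 1000 bp of an annotated start site (31.7%, against 29.0% of all regions). Of the 41 regions of all 3 lists 26 did (63.4%, interval 48.1 to 76.4, against 57.9% of all regions of that pattern), and of the 31 gained regions 2 did (6.45%, interval 1.79 to 20.7, against 13.7%). In the 2 h list alone 0 of 11 did (interval up to 25.9%, against 9.44%). In the 12 h list alone 4 of 13 did (30.8%, interval 12.7 to 57.6, against 7.20%), of which 2 were in the Ier3 window and 1 each in those of Dusp1 and Dusp5, a share above that of the series in a count of 13. The gained regions were intergenic in 21 cases, in an intron in 7 and over an exon in 3. A member was the nearest protein-coding gene for 16 of the 31 gained regions and for 53 of all 101, so that about as many regions of these windows were nearest to a neighbour, and none is assigned to a gene here.

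AP-1 matches were found in the central 500 bp of 33 of the 101 regions (32.7%, interval 24.3 to 42.3, against 35.6% of all regions). They were in 8 of 41 regions of all 3 lists (19.5%, against 24.4% of all regions of that pattern) and in 11 of 31 gained regions (35.5%, interval 21.1 to 53.1, against 47.3%). In the 2 h list alone 4 of 11 had one (36.4%, against 32.3%), and in the 12 h list alone 8 of 13 did (61.5%, interval 35.5 to 82.3, against 47.6%). Each interval of the members covered the share of the series. Counted over the full length of the regions, 41 of 101 held 51 matches. The 500 bp were taken around the centre and ran past the ends of narrower regions. A match counted in them can therefore lie outside the listed region.

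**Figure D5:**
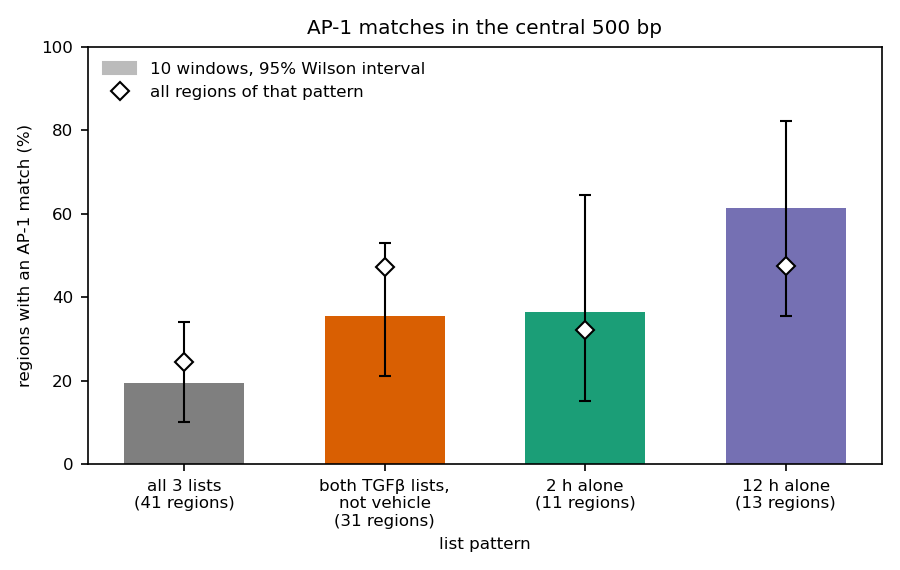
Share of regions with an AP-1 match in the 500 bp around their centre (y axis, %) by list pattern (x axis). This stretch runs past the ends of narrower regions. Bars are the regions of the 10 windows with 95% Wilson intervals, and diamonds are all regions of the series with that pattern. The share is 19.5% in all 3 lists and 61.5% at 12 h alone, and every interval contains its diamond.

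Within the gained regions AP-1 was unevenly spread over the members. It was in 4 of 4 at Dusp6, 4 of 7 at Dusp5, 3 of 5 at Ier3, 1 of 4 at Dusp1, 1 of 3 at Klf10 and in the single one at Spry2, counted over the full length. It was in 0 of 4 at Ier2, 0 of 2 at Dusp4 and 0 of 1 at Egr1. These numbers are too small for an order of the genes.

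The other motifs were rare in the central 500 bp. The CRE was in 4 of 101 regions (against 1.43% of all), the EGR motif in 7 (5.23%), the CArG box in 2 (2.30%), the ETS motif in 1 (2.96%) and the SMAD palindrome in 0 (0.819%). The CArG regions were the Egr1 promoter and a region of the 12 h list alone, 67462 bp upstream of Dusp5, whose match lay outside its bounds. The boxes of the Dusp5 promoter lay outside the central 500 bp. Over the full length the EGR motif was in 13 regions, the CArG box in 3 and the ETS motif in 2. The CRE regions were the Dusp1 and Ier2 promoters printed above, the gained region upstream of Dusp1, and a region of all 3 lists 44058 bp upstream of Ier3, which held 2 matches over its full length. No matches of different motifs overlapped each other in these regions, and 1 pair of EGR matches did, at Egr1.

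Other genes of the pathway were compared from lists that did not include the members. Of 12 other MAPK feedback genes, 7 had their 5′ end in a region with vehicle, 10 at 2 h and 9 at 12 h. Over all protein-coding genes the shares were 36.0%, 41.5% and 41.6%. The phosphatase genes Dusp2 and Dusp14 were the 2 whose 5′ end was in both TGFβ lists and not with vehicle. The windows of the 12 genes held 98 regions, of which 30 were gained (30.6%, interval 22.4 to 40.3). This is close to the members' 30.7% and to the 28.5% of all regions of the series. Dusp16, a phosphatase for JNK and p38, had 6 gained of 15.

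For 22 other immediate early and ERK response genes the 5′ end was listed in 18 with vehicle and in 19 at each TGFβ time. The shares of all protein-coding genes are those given above. Their 202 regions held 35 gained ones (17.3%, interval 12.7 to 23.1), a lower share than the 28.5% of the series, and Myc had 0 gained among 7. The 10 genes of the ERK cascade had 20 gained of 77 (26.0%, interval 17.5 to 36.7). The window of Egfr, the receptor, held 10 of these 20 among its 14 regions. No test was run between these lists.

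Fewer regions were gained in shortened lists. When the TGFβ lists were shortened to the length of the vehicle list by keeping their widest peaks, 8 of 69 regions were gained (11.6%), against 12.6% over the series. These were 3 at Ier3, 2 at Dusp5 and 1 each at Dusp1, Dusp6 and Klf10. The Dusp5 regions that were kept were those 37659 bp upstream and 25289 bp downstream. Because gained regions were narrower than those of all 3 lists, a cut by width falls on them first. List length and peak width were changed together here, and their parts cannot be told apart.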

How the data were processed

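ATAC-seq was measured in NMuMG cells given vehicle for 2 h or TGFβ1 for 2 h or 12 h, with 2 biological replicates each. The authors trimmed and aligned the reads with the ENCODE pipeline, called peaks with macs2 (version 2.1.2) on mm9 and kept those reproducible by IDR. The deposited lists hold peak positions from both replicates. Per the file headers and values, column 5 of the vehicle list is a peak score from the authors without a stated scale, and that of the TGFβ lists is a line number, which was not used. The lists hold no read counts, and the library read totals of the study were not used here.

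Distinct peaks of at least 150 bp were merged across gaps under 1000 bp, first by list and afterwards over all 3 lists. Regions were shared at 1 bp of overlap. Genes and their 5′ ends were those of GENCODE vM1 on NCBIM37. RefSeq promoter sequences (GRCm38.p6) of 5 members, placed by sequence, began 0 to 47 bp from those ends. Python 3.11.15, numpy 2.4.6 and matplotlib 3.10.9 were used. Interval and motif functions were tested on simulated data. The text names all 10 members and, for each, the region at or nearest to the 5′ end, the nearest gained region and the widest region at 12 h. Other regions and genes are named as examples of a count, and were chosen after their values were seen. Members and lists were chosen with earlier results of these data known. With 1 list per condition no test was run.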

Additional observations from a re-analysis of the deposited data

How the results depend on the processing

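No paired analysis was possible because each list was made from both replicates and holds no value per replicate, and for the same reason no replicate could be left out. Of 93 values under other settings, 82 stayed within the limits set for each and 11 moved. The limits were wide, so that staying within them does not mean little change. With the TGFβ lists shortened to the length of the vehicle list, the 101 regions became 69, which counted as unmoved. In that setting the 5′ end of 8 members lay in a region with vehicle, 6 at 2 h and 8 at 12 h, which also counted as unmoved. The 101 regions became 61 with the wider 50% of each list, 60 in a window of 50 kb, 184 in a window of 200 kb and 53 when limited to regions nearest to a member. The 31 gained regions became 14 with the wider 50% of each list. With the TGFβ lists shortened to the length of the vehicle list they became 8 (11.6% of the regions). They became 51 in the window of 200 kb and 16 among the regions nearest to a member. The share with an EGR match fell to 1.98% in the central 200 bp, and the share at a start site became 43.6% with a margin of 5000 bp. Leaving out Ier3 or Dusp5, chosen after seeing the data, gave gained shares of 34.2% and 26.7%. The threshold of the authors, the length of the lists and the read depth, which was not used here, limit what absence from a list means, and the part of each was not tested.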
